A study of Mus musculus with 2 samples.

Results

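The genes described here are 10 genes used to recognise endothelial cells, the cells that line blood and lymphatic vessels: *Pecam1*, *Cdh5*, *Kdr*, *Tek*, *Tie1*, *Emcn*, *Esam*, *Cldn5*, *Flt1* and *Eng*. They were taken by symbol from the mRNA-seq table, and all 10 were among its 18159 gene symbols. The table holds 1 library for each of *Dnmt1*-WT and *Dnmt1*-KO, made from the peeled muscle layers (tunica muscularis) of the jejunum, the middle part of the small bowel, in C57BL/6 mice at 15 days of age. *Dnmt1*-KO mice carry smMHC Cre-eGFP/+ and a floxed *Dnmt1* deleted by the Cre, and *Dnmt1*-WT mice carry the same Cre-eGFP transgene. The sample labels give both libraries the same strain, with the Myh11-cre,-EGFP transgene and Dnmt1lox/lox, and the same free-text description, that of the knockout, so the genotype was read from the title and the genotype label. Cre is under the *Myh11* promoter, which is active in smooth muscle of the gut and of vessels, and not a promoter of endothelial cells. RNA came from male and female mice of each genotype, and how their RNA was combined is not given in the sources used here. With 1 library per genotype, no difference below has a replicate check, and no test between genotypes could be made.

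Endothelial cells are held together by adherens and tight junctions made of VE-cadherin, claudins and adhesion molecules of the immunoglobulin family. Their growth and survival depend on receptor tyrosine kinases, those for vascular endothelial growth factor (VEGF) and those of the TIE family that bind angiopoietins. In the gut wall, small vessels run through and between the muscle layers and the nerve plexuses, and the RNA of a peeled muscle layer holds their transcripts.

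The targeted gene, *Dnmt1*, had 11.58 FPKM in *Dnmt1*-WT against 7.58 FPKM in *Dnmt1*-KO, in RNA of all cells of the layer, where FPKM are fragments scaled to transcript length and to the number of mapped fragments. FPKM are per length, so levels can be compared between genes. Smooth muscle genes were abundant in both libraries, as the tissue label says, and all 9 of a smooth muscle list were lower in the *Dnmt1*-KO library, from a ratio of 0.893 for *Cnn1* to 0.427 for *Smtn*. *Acta2*, smooth muscle actin, was the most abundant of them at 5408.13 and 4016.24 FPKM. The number of reads behind each FPKM is not listed, and no gene had a value between 0 and 0.03 FPKM in either library.

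All 10 endothelial genes had a higher level in *Dnmt1*-KO than in *Dnmt1*-WT. Their ratios of *Dnmt1*-KO to *Dnmt1*-WT FPKM ran from 1.36 for *Flt1* to 5.02 for *Cldn5*, with a median ratio of 2.12, or 1.08 on the log2 scale. The sum over the 10 genes was 92.16 FPKM in *Dnmt1*-WT against 201.72 FPKM in *Dnmt1*-KO, a ratio of 2.19. The count of genes with a ratio of 2 or more was 6 of 10, where 11.8% of the 16102 genes above 0 FPKM in both libraries reached that ratio. A ratio of 1.5 or more was found for 9 of the 10, against 19.7% of all genes, and a ratio above 1 for all 10, against 50.3%. None of the 10 had a ratio of 0.5 or less, which 4.98% of all genes had. Large ratios were less common among better expressed genes, and all 10 endothelial genes were at 1 FPKM or more in both libraries. Among the 12758 genes at that level, 5.53% had a ratio of 2 or more, and their median log2 ratio was -0.03. In bulk tissue, more or fewer cells of a type and more or less RNA per cell cannot be told apart.

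**Figure D1:**
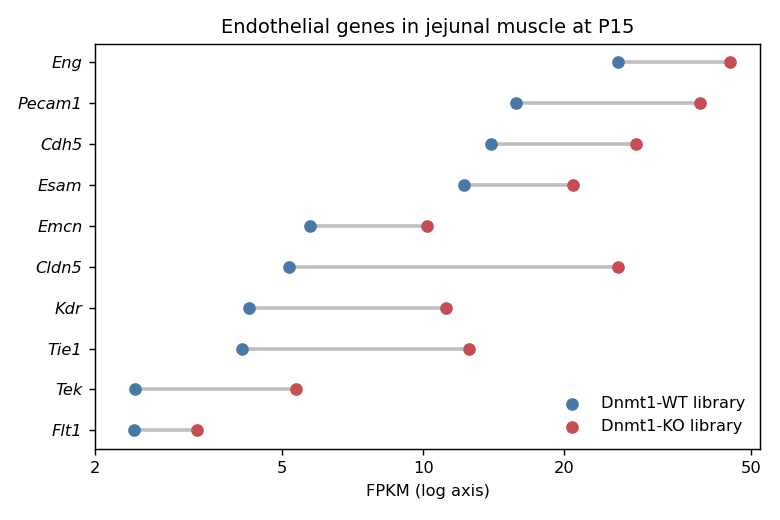
FPKM on a log axis of the 10 endothelial genes in the *Dnmt1*-WT library (blue) and the *Dnmt1*-KO library (red), ordered by the *Dnmt1*-WT level; each point is 1 library and the grey line joins the pair. Every red point lies to the right of its blue point, with the longest line for *Cldn5* (5.19 and 26.07 FPKM) and the shortest for *Flt1* (2.42 and 3.3 FPKM).

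The 4 junction and adhesion genes summed to 47.14 FPKM in *Dnmt1*-WT against 114.09 FPKM in *Dnmt1*-KO, a ratio of 2.42. *Cdh5*, at chr8:104101625-104144511 on the plus strand of GRCm38, encodes VE-cadherin, the cadherin of endothelial adherens junctions, and was listed at 13.96 FPKM in *Dnmt1*-WT and 28.37 FPKM in *Dnmt1*-KO, a ratio of 2.03. *Pecam1* (chr11:106654217-106750628, minus strand) encodes CD31, an immunoglobulin family adhesion molecule at endothelial contacts that platelets and many leukocytes also carry. Its level was 15.76 FPKM in *Dnmt1*-WT and 38.84 FPKM in *Dnmt1*-KO, a ratio of 2.46. *Esam* (chr9:37528078-37538319, plus strand), an adhesion molecule of endothelial tight junctions and platelets, had the smallest ratio of the junction genes, 1.70, from 12.23 and 20.81 FPKM.

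*Cldn5*, a protein-coding gene of 1 annotated transcript at chr16:18776847-18778262 on the plus strand, encodes claudin-5, the main claudin of endothelial tight junctions. It was listed at 5.19 FPKM in *Dnmt1*-WT and 26.07 FPKM in *Dnmt1*-KO. The ratio of 5.02 was the largest of the 10, and 2.96% of all genes had a ratio as high. *Cldn5* went from the sixth to the fourth place in the order of levels, and from 5.63% to 12.9% of the FPKM summed over the 10 genes. Relative to *Cdh5* in the same library, which needs no scaling between libraries, *Cldn5* was at 0.372 in *Dnmt1*-WT and 0.919 in *Dnmt1*-KO. Genes for intracellular and more widely expressed partners of these junctions did not share the direction. Of 10 junction partner genes, 3 were higher and 7 lower, with a median log2 ratio of -0.15, where 50.3% of all genes were higher. *Ctnnb1*, which encodes the beta-catenin that binds cadherins, was the most abundant at 178.06 and 163.55 FPKM, and none of the 10 at least doubled. *Jam2*, a junctional adhesion molecule, had the lowest ratio of them, 0.518, from 47.47 and 24.58 FPKM, and *F11r*, which encodes its relative JAM-A, the highest, 1.32.

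The VEGF receptor genes differed in their ratios. *Kdr*, at chr5:75932827-75978458 on the minus strand, encodes VEGFR2, the main signalling receptor for VEGF-A, and was listed at 4.26 FPKM in *Dnmt1*-WT and 11.19 FPKM in *Dnmt1*-KO, a ratio of 2.63. *Flt1*, at chr5:147561604-147726011 on the minus strand, encodes VEGFR1, which binds VEGF-A tightly, signals weakly and acts largely as a trap. It was the lowest of the 10 genes in both libraries, at 2.42 and 3.30 FPKM, and its ratio of 1.36 was the smallest. The level of *Kdr* relative to *Flt1* was 1.76 in *Dnmt1*-WT against 3.39 in *Dnmt1*-KO.

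The TIE receptor genes both had a ratio above 2, but *Tek* no longer did with 1 added to every FPKM, at a log2 ratio of 0.89. *Tek* (chr4:94739289-94874976, plus strand) encodes TIE2, the receptor for angiopoietins, which some blood cells also carry, and was listed at 2.43 FPKM in *Dnmt1*-WT and 5.37 FPKM in *Dnmt1*-KO, a ratio of 2.21. *Tie1* (chr4:118471191-118490061, minus strand), which encodes an orphan receptor that pairs with TIE2, was at 4.11 and 12.5 FPKM, a ratio of 3.04 and the second largest of the 10. *Tie1* stood at 1.69 times the level of *Tek* in *Dnmt1*-WT and 2.33 times in *Dnmt1*-KO.

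*Eng* and *Emcn* make up the rest. *Eng*, at chr2:32646595-32682669 on the plus strand, encodes endoglin, a co-receptor for ligands of the TGF-beta family, and was the most abundant of the 10 genes in both libraries, at 26.05 FPKM in *Dnmt1*-WT and 45.07 FPKM in *Dnmt1*-KO. Its ratio was 1.73. Exons of *Eng* overlap those of *Fpgs* on the opposite strand, which was listed at 7.72 and 11.07 FPKM, and whether fragments were counted by strand is not given in the sources used here. *Emcn*, at chr3:137341067-137432185 on the plus strand, encodes endomucin, a sialomucin of venous and capillary endothelium, and was listed at 5.75 and 10.2 FPKM, a ratio of 1.77. *Emcn* went from the fifth to the eighth place in the order of levels. The rank was the same in both libraries for 6 of the 10 genes, among them *Eng*, *Pecam1* and *Cdh5* at the top and *Tek* and *Flt1* at the bottom, and without replicates no spread can be set against the steps between neighbours.

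**Figure D2:**
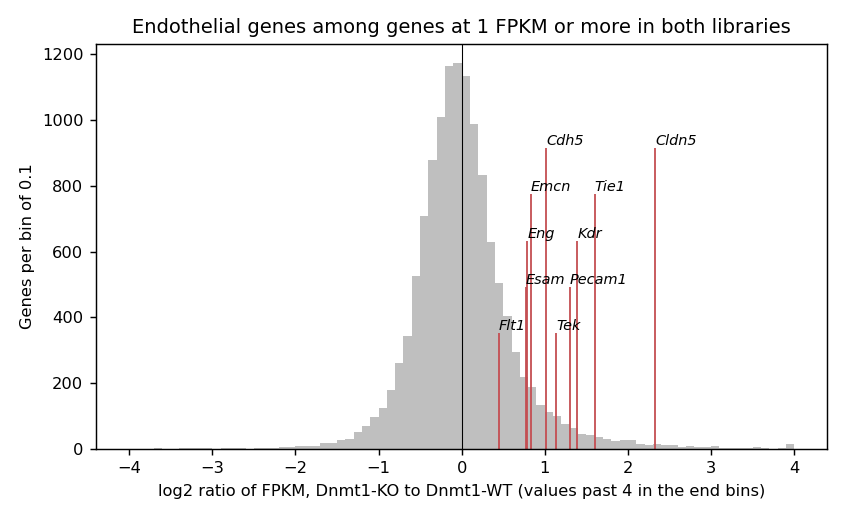
Number of genes (grey bars) by log2 ratio of FPKM, *Dnmt1*-KO to *Dnmt1*-WT, over the 12758 genes at 1 FPKM or more in both libraries, with a red line at the log2 ratio of each endothelial gene; the height of a red line has no meaning. The bars peak near 0, and the red lines run from 0.45 for *Flt1* to 2.33 for *Cldn5*.

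The table also gives the number of transcript variants found for each gene in each library, without naming them. That number was equal in both libraries for 6 of the 10 endothelial genes. *Cdh5* and *Tek* had 1 variant in *Dnmt1*-WT and 2 in *Dnmt1*-KO, *Pecam1* had 4 and 5, and *Emcn* had 3 and 2. Across all genes above 0 FPKM in both libraries, 12.5% had more variants in the *Dnmt1*-KO library and 13.6% had fewer. The paper lists more mapped reads for the *Dnmt1*-WT library, and the part of depth in these numbers was not tested.

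DNMT1 keeps up the methylation of CpG sites, so the sequence before the start site was read for CpG in RefSeq's promoter table for GRCm38.p6, which matched 7 of the 10 genes. In the 250 bases before the RefSeq start site these genes had between 1 CpG, for *Emcn*, and 23, for *Flt1*, where the 32851 windows of all genes had a median of 6 and a middle range from 2 to 16. *Kdr* had 16, *Cldn5* 12, *Tie1* 6, *Eng* 4 and *Tek* 2. GENCODE starts some of these genes further upstream than RefSeq, so that 212 of the 250 bases for *Tie1*, 11 for *Emcn* and 3 for *Kdr* lie in its exons, and the window of *Tie1* is mostly transcribed sequence by that annotation. The genes with the smallest and the largest ratio were both above the median in CpG. The letters GGAA, the core of the site bound by ETS factors, were searched on both strands and were found in 6 of the 7 windows and in 93.4% of all windows. *Cldn5* had no match. A match of letters is a description and not a binding site, and CpG methylation was not analysed here. The windows of the genes with the largest ratio, the smallest ratio and the highest level are shown from 5′ to 3′ with each CpG in capitals. They lie at chr16:18776597-18776846 on the plus strand (*Cldn5*), chr5:147726012-147726261 on the minus strand (*Flt1*) and chr2:32646345-32646594 on the plus strand (*Eng*).
Cldn5: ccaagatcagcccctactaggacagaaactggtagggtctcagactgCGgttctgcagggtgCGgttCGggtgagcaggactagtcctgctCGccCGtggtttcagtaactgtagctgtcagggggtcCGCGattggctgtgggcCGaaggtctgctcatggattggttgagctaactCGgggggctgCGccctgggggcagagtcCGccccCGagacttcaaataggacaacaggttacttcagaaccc
Flt1: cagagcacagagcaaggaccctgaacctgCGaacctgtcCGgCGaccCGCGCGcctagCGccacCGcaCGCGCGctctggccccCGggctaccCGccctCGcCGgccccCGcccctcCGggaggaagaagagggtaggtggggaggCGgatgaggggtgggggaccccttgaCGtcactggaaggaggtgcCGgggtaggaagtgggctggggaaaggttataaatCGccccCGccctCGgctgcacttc
Eng: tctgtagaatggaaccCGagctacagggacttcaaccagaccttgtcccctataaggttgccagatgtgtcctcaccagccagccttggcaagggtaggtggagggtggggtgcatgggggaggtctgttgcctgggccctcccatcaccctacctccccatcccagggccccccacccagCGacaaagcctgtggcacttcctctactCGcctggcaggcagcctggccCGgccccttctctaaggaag

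The genes for the ligands of the VEGF receptors were mixed, with *Vegfa* and *Pgf* higher and *Vegfb*, *Vegfc* and *Figf* lower in *Dnmt1*-KO. *Vegfa*, the main ligand of VEGFR1 and VEGFR2, was listed at 10.57 FPKM in *Dnmt1*-WT and 13.44 FPKM in *Dnmt1*-KO, a ratio of 1.27. *Vegfb*, whose product binds VEGFR1, was lower in *Dnmt1*-KO, at 57.3 and 42.84 FPKM. *Pgf*, which encodes another VEGFR1 ligand, placental growth factor, went the other way, with 3.1 and 7.52 FPKM and a ratio of 2.43. The genes for the lymphatic ligands VEGF-C and VEGF-D were both lower in *Dnmt1*-KO, *Vegfc* at 4.82 and 2.91 FPKM and *Figf*, as the table names the VEGF-D gene, at 20.9 and 15.45 FPKM. Their receptor gene *Flt4*, which encodes VEGFR3 and is expressed mainly in lymphatic endothelium, was listed at 1.15 FPKM in *Dnmt1*-WT and 6.57 FPKM in *Dnmt1*-KO, a ratio of 5.71. The neuropilins, co-receptors that nerve and muscle cells also carry, were at 23.11 and 24.46 FPKM for *Nrp1* and at 92.44 and 58.65 FPKM for *Nrp2*. Of these 8 genes, 4 were higher and 4 lower, and 2 at least doubled, but *Nrp1* turned from a log2 ratio of 0.08 to -0.02 when each library was divided by its FPKM sum.

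For the TIE receptors, the antagonist and the agonist ligand differed in direction. *Angpt1*, which encodes the agonist released by mural cells, was listed at 1.21 FPKM in *Dnmt1*-WT and 0.62 FPKM in *Dnmt1*-KO, while *Angpt2*, which encodes the context-dependent antagonist stored in endothelial cells, was at 0.68 and 2.42 FPKM. The level of *Angpt2* relative to *Angpt1* was 0.562 in *Dnmt1*-WT against 3.90 in *Dnmt1*-KO. *Angpt4* was listed at 0.15 and 1.42 FPKM. All 3 ligands were close to the lower end of the scale in at least 1 library. *Ptprb*, which encodes the endothelial phosphatase that acts on TIE2, was at 3.71 and 9.58 FPKM, a ratio of 2.58.

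In the pathway in which endoglin acts, the gene of the endothelial type I receptor ALK1 and the *Id* target genes were higher in *Dnmt1*-KO, and the type II receptor gene was lower. *Acvrl1*, the ALK1 gene, was listed at 9.95 FPKM in *Dnmt1*-WT and 14.11 FPKM in *Dnmt1*-KO, and *Bmpr2* at 21.69 and 14.95 FPKM. The ligand gene *Gdf2*, which encodes BMP9, was near the lower end of the scale at 0.1 and 0.16 FPKM. Of the SMAD genes, *Smad1* was at 13.93 and 17.33 FPKM, *Smad5* at 19.41 and 15.89 FPKM, and *Smad9* at 16.04 and 6.91 FPKM. The target genes *Id1* and *Id3* were at 44.94 and 67.01 FPKM and at 44.51 and 77.94 FPKM, and *Smad6*, which encodes an inhibitor and is itself a target, was lower at 10.7 and 7.87 FPKM. None of the 9 genes analysed at least doubled and *Smad9*, at a ratio of 0.431, was the lowest, and *Bmp10* was not analysed here.

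**Figure D3:**
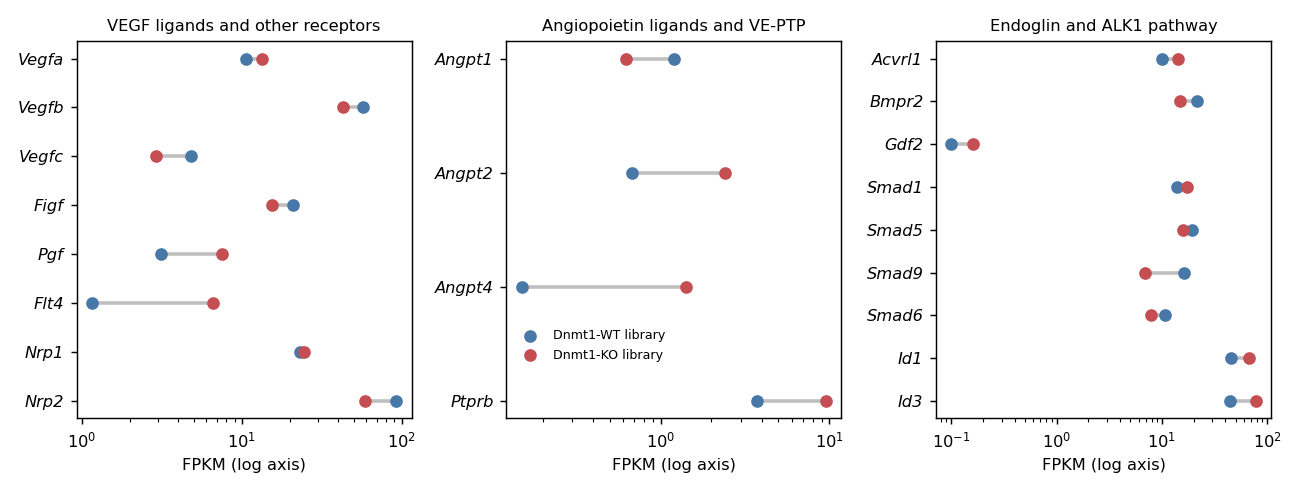
FPKM on a log axis of ligands, receptors and mediators of the VEGF (left), angiopoietin (middle) and endoglin (right) pathways in the *Dnmt1*-WT library (blue) and the *Dnmt1*-KO library (red), 1 point per library. Red points lie on both sides of the blue ones in every panel, far to the right for *Flt4* (1.15 and 6.57 FPKM) and *Angpt4* (0.15 and 1.42 FPKM) and to the left for *Smad9* (16.04 and 6.91 FPKM).

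Endothelial genes outside the 10 were examined through further lists. Of 23 surface and secreted genes of endothelial cells, all 23 were higher in the *Dnmt1*-KO library and 15 at least doubled. Of all genes above 0 FPKM in both libraries, 50.3% were higher and 11.8% at least doubled. The median log2 ratio of the 23 was 1.21. *Cd34*, a sialomucin gene of endothelial and progenitor cells, had the highest mean level over both libraries, at 28.35 FPKM in *Dnmt1*-WT and 64.94 FPKM in *Dnmt1*-KO. *Procr*, which encodes the endothelial protein C receptor, had the highest ratio, 7.04, and *Ecscr* the lowest, 1.13. *Plvap*, the gene of the diaphragm protein of fenestrated capillaries, was at 6.55 and 37.38 FPKM, *Vwf*, the gene of the clotting protein von Willebrand factor, at 3.24 and 16.48 FPKM, and *Nos3*, the gene of endothelial nitric oxide synthase, at 1.24 and 5.25 FPKM. The summed FPKM of these 23 genes had a ratio of 2.29, beside 2.19 for the 10.

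Of 14 transcription factor genes known to act in endothelium, 12 were higher and 9 at least doubled, with a median log2 ratio of 1.13. The shares over all genes were 50.3% higher and 11.8% at least doubled. With 1 added to every FPKM, which lowers the ratios of weakly expressed genes, 4 at least doubled. *Klf2*, a gene induced by blood flow, had the highest mean level over both libraries, at 18.01 and 37.92 FPKM, and *Tal1* had the highest ratio, 7.80, from values near the lower end of the scale, 0.1 and 0.78 FPKM. The ETS factor genes *Erg* and *Fli1* were listed at 2.32 and 5.57 FPKM and at 2.44 and 5.53 FPKM. *Nr2f2*, which encodes the venous factor COUP-TFII and is also expressed in mesenchymal cells, had the lowest ratio, 0.631. The part of blood cells in the ratios of these transcription factor genes was not tested. The Notch genes were mixed, with 6 of 9 higher and 2 at least doubled, of which 0 did so with 1 added to every FPKM. The endothelial receptor gene *Notch4* had the highest ratio of them, 2.26, at 1.45 and 3.28 FPKM, the target gene *Hey1* the lowest, 0.666, and *Rbpj*, which encodes the DNA-binding factor shared by all Notch receptors, was the most abundant at 18.57 and 15.98 FPKM.

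The arterial, venous, capillary and lymphatic lists were set beside all genes, of which 50.3% were higher in *Dnmt1*-KO and 11.8% at least doubled. All 6 lymphatic genes analysed were higher and 5 at least doubled, with a median log2 ratio of 2.53, which was 1.53 with 1 added to every FPKM. The highest ratio, 8.55, was that of *Reln*, from values near the lower end of the scale, 0.22 and 1.88 FPKM. *Lyve1*, a hyaluronan receptor gene that some macrophages also express, was listed at 3.1 and 20.06 FPKM, and *Prox1*, the gene of the factor that specifies lymphatic endothelium, at 0.57 and 2.19 FPKM. *Pdpn*, which mesothelial and stromal cells also express, was the most abundant of the list at 24.05 and 37.41 FPKM and had its lowest ratio, 1.56. The list's summed FPKM had a ratio of 2.47, beside 2.33 for the capillary, 1.1 for the arterial and 1.06 for the venous list. All 4 capillary genes were higher, from a ratio of 1.82 for *Rgcc* to 2.72 for the fatty acid transporter gene *Cd36*, which adipocytes and macrophages also express and which was the most abundant at 12.78 and 34.78 FPKM. Of 6 arterial genes 4 were higher, with a range from 0.582 for *Efnb2*, at 23.31 and 13.56 FPKM, to 10.7 for the connexin gene *Gja5*, at 0.62 and 6.63 FPKM. Of 4 venous genes 3 were higher, the highest being *Selp* at 0.05 and 0.52 FPKM, and the receptor gene *Ephb4* had the highest mean level over both libraries, at 19.07 and 23.0 FPKM. The venous median log2 ratio was 0.73, and 0.27 over the genes at 1 FPKM or more in at least 1 library. The differences between vessel types were not tested.

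**Figure D4:**
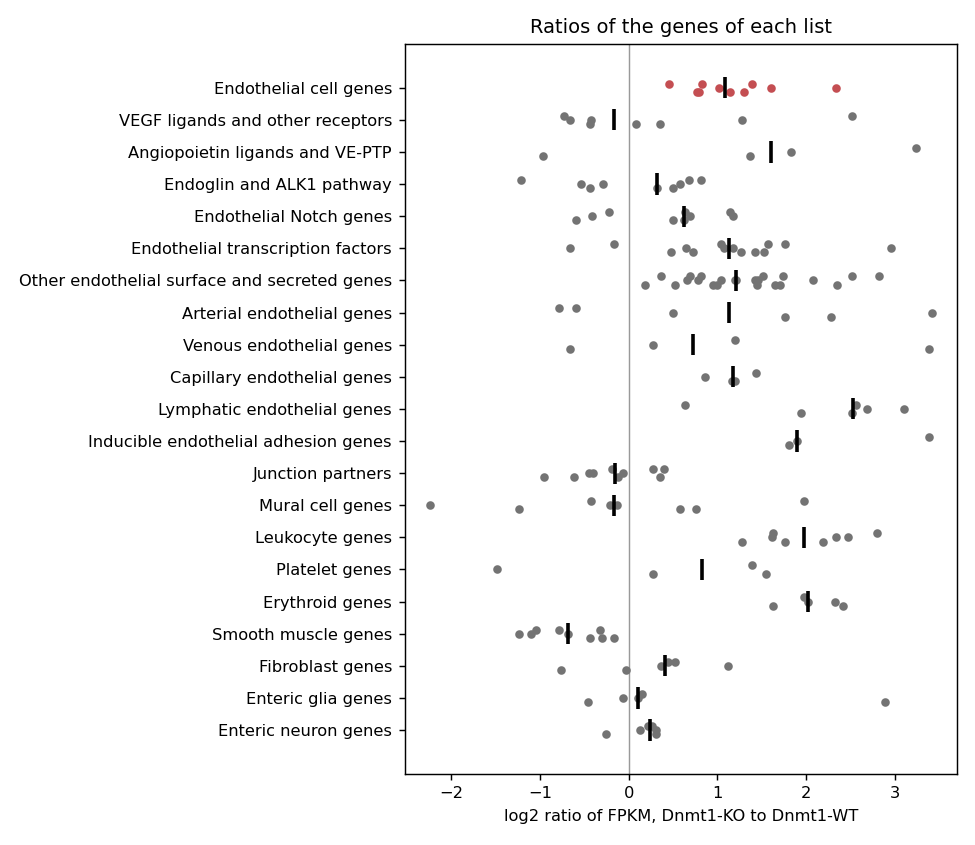
log2 ratio of FPKM, *Dnmt1*-KO to *Dnmt1*-WT, for each gene above 0 FPKM in both libraries (points, 1 per gene, spread vertically for visibility) in the 10 endothelial genes (red) and in each other list (grey), with the list's median as a black bar. The endothelial median is 1.08, and the medians of the leukocyte (1.97) and lymphatic (2.53) lists lie to its right, those of the mural cell (-0.17) and smooth muscle (-0.68) lists to its left.

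Other cell types were compared through marker lists, beside all genes, of which 50.3% were higher in *Dnmt1*-KO and 11.8% at least doubled. Mural cells, the pericytes and smooth muscle cells around vessels, carry genes of which 3 of 8 were higher and 5 lower, with a median log2 ratio of -0.17 against 1.08 for the endothelial genes. *Rgs5*, the most abundant at 434.65 FPKM in *Dnmt1*-WT and 91.95 FPKM in *Dnmt1*-KO, had the lowest ratio, 0.212, and *Notch3*, at 2.75 and 10.77 FPKM, the highest, 3.92. Several of these genes, such as those for potassium channels, are also expressed by other cells of the gut wall. Enteric neuron genes had a median log2 ratio of 0.24 and none at least doubled, with *Uchl1* the most abundant at 227.7 and 283.24 FPKM and ratios from 0.835 for *Elavl4* to 1.24. The median of the enteric glia genes was 0.11, with *Sox10* at 25.16 and 27.88 FPKM and *Gfap* alone at least doubled, 7.40-fold. For fibroblast genes it was 0.41, with *Pdgfra* lowest at 0.591, *Col1a1* highest at 2.17 and *Col3a1* the most abundant at 1148.06 and 1552.41 FPKM.

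Blood cells express some of the same genes, and leukocyte and erythroid genes were higher in *Dnmt1*-KO, while platelet genes were mixed. All 8 leukocyte genes at least doubled, against 11.8% of all genes, with a median log2 ratio of 1.97. Their summed level was 55.93 FPKM in *Dnmt1*-WT and 239.16 FPKM in *Dnmt1*-KO. Their ratios ran from 2.43 for *Laptm5* to 6.99 for *Itgb2*, and *Tyrobp* was the most abundant at 20.89 and 95.03 FPKM. None of them was at 0 in either library, and the study also had PCR primers for *Coro1a* and *Fcer1g* of this list. Of 6 platelet genes analysed, *Ppbp* and *Treml1* were listed at 0 in *Dnmt1*-WT and at 0.41 and 0.06 FPKM in *Dnmt1*-KO. The other platelet genes ran from a ratio of 0.358 for *Itga2b*, at 11.55 and 4.13 FPKM, to 2.93 for *Pf4*, which macrophages also express, at 18.55 and 54.41 FPKM. Of the erythroid genes, those of the red cell lineage, 5 were above 0 in both libraries and all 5 were higher, with *Hbb-bs* the most abundant at 75.01 and 304.43 FPKM, *Hba-a2* highest at 5.31-fold and *Alas2* lowest at 3.11-fold. The near-identical globin genes are uncertain one by one, since *Hbb-b1* was at 46.41 FPKM in *Dnmt1*-WT and listed at 0 in *Dnmt1*-KO and *Hba-a1* was listed at 0 in both. The erythroid list summed to 172.28 and 561.96 FPKM. When *Pecam1*, *Eng*, *Esam* and *Tek*, which blood cells also express, were left out, the 6 remaining endothelial genes had a median log2 ratio of 1.21 and 4 of them at least doubled. The part of blood cells, and of the lower smooth muscle transcripts, in the ratios of the endothelial genes was not tested.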

How the data were processed

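RNA of jejunal tunica muscularis was extracted with the mirVana kit, made into TruSeq RNA libraries and sequenced, 1 library per genotype. The authors deposited 1 table with FPKM and the number of transcript variants per gene and library, and their own ratio of the genotypes, which was not used. The labels' processing notes name TopHat 1.4.1, Cufflinks 2.0.2 and mm10 without saying which step each served. Commas within the deposited FPKM values were removed. The libraries summed to 429698 FPKM (*Dnmt1*-WT) and 460845 FPKM (*Dnmt1*-KO). The paper lists more mapped reads for *Dnmt1*-WT than for *Dnmt1*-KO, but no read numbers per gene, and no interval was given.

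Ratios were plain ratios of FPKM, without scaling or pseudocount, and lists were described by counts past 2-fold and 1.5-fold and by the median log2 ratio over genes above 0 FPKM in both libraries, beside the same over all genes. With 1 library per genotype there was no test and no p-value. The members and the 20 other lists (154 genes) were chosen with earlier results of these data known. Named were the 10 members, *Dnmt1*, the VEGF, angiopoietin and endoglin lists in full, and of every other list the genes with the highest ratio, the lowest ratio and the highest mean FPKM, except 1 gene of the enteric glia list that is not reported here. *Erg*, *Fli1*, *Plvap*, *Vwf*, *Nos3*, *Lyve1*, *Prox1*, *Vcam1*, *Fpgs*, *Coro1a*, *Fcer1g* and the genes at 0 in a library were named outside this rule after their values were seen. Positions came from GENCODE release M21 and promoter windows from RefSeq, both on GRCm38. Alternatives were 3 scalings between libraries, a pseudocount of 0.1 or 1, a minimum of 1 or 5 FPKM, and leaving out members. Counting past a fold was checked on simulated data with planted changes well past the fold, which says nothing about values near it. Python 3.11.15, numpy 2.4.6, pandas 2.3.3 and matplotlib 3.10.9 were used.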

Additional observations from a re-analysis of the deposited data

How the results depend on the processing

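Across 3 scalings and 2 pseudocounts, the log2 ratios of the 10 endothelial genes stayed above 0 in 50 of 50 values, between 0.33 and 2.36. Division by the FPKM sum shifted all log2 ratios by -0.101, and the other scalings by 0.03 and 0.031. The count of genes at least doubled, 6, was 5 after division by the FPKM sum, without *Cdh5*, and 4 with 1 added to every FPKM, without *Cdh5* and *Tek*. The median log2 ratio of 1.08 ranged from 0.93 to 1.11 across the scalings and pseudocounts, and from 1.02 to 1.14 when each gene was left out in turn. The ratio of the summed FPKM, 2.19, was 2.37 without *Eng*, the most abundant. The median log2 ratio was 1.21 without the 4 genes that blood cells also express, an omission chosen after seeing the data. The share of all genes at least doubled, 11.8%, was 5.53% among genes at 1 FPKM or more in both libraries and 2.99% among genes at 5 FPKM or more. Of 126 list medians under these settings and a minimum of 1 FPKM, 3 moved by more than 1.5-fold, those of the platelet list with 1 added (0.12) and at a minimum of 1 FPKM in at least 1 library (0.03) and that of the lymphatic list with 1 added (1.53). No list median changed sign under the 3 scalings. Adding 1 also left 0 Notch genes, 4 transcription factor genes, 1 venous gene and 1 platelet gene at least doubled. Read numbers are listed per library and not per gene, and values near 0.03 FPKM carry little information. No paired analysis was possible because each genotype has 1 library.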

Other observations

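Adhesion genes that endothelial cells switch on when activated were higher in the *Dnmt1*-KO library. *Icam1*, whose product binds leukocyte integrins, was listed at 3.88 FPKM in *Dnmt1*-WT and 13.64 FPKM in *Dnmt1*-KO, a ratio of 3.52, and *Vcam1* at 2.62 and 9.75 FPKM. Both genes are also expressed by other cells, *Icam1* by leukocytes and *Vcam1* by stromal and muscle cells. The selectin genes, which are closer to endothelium, were near the lower end of the scale. *Selp* was at 0.05 and 0.52 FPKM, and *Sele*, a gene of activated endothelium, was listed at 0 in *Dnmt1*-WT and at 0.07 FPKM in *Dnmt1*-KO. The summed level of the 4 genes was 6.55 FPKM in *Dnmt1*-WT and 23.98 FPKM in *Dnmt1*-KO, a ratio of 3.66 beside 2.19 for the 10 endothelial genes.

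The Notch, transcription factor, surface and secreted, arterial, venous, capillary, lymphatic and inducible adhesion lists were also read as 8 lists with each gene counted once. Of their 64 genes above 0 FPKM in both libraries, 58 were higher in *Dnmt1*-KO and 40 had a ratio of 2 or more, against 50.3% and 11.8% of all genes. None had a ratio of 0.5 or less, against 4.98% of all genes, and the median log2 ratio was 1.19. Genes that leukocytes or macrophages also express, such as *Icam1*, *Lyve1* and *Cd36*, are among them. The part of blood cells in these counts was not tested. The VEGF, angiopoietin and endoglin lists are not among the 8, and there 4 of 8, 1 of 4 and 4 of 9 genes were lower, with *Smad9* at a ratio of 0.431.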
